A study of Rattus norvegicus with 6 samples.

Results

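The miRNAs of striated muscle were taken from a table of 764 rat miRNA entries by name: every row of miR-1, miR-133a, miR-133b, miR-206, miR-208a, miR-208b and miR-499. This gave 14 rows, 7 of them detected in at least 1 library and 7 at 0 throughout. Their names in that table carry the rat prefix, with rno-miR-1-3p, rno-miR-133a-3p, rno-miR-206-3p and rno-miR-499-5p as the main guide strands, and the prefix is left out below. The tissue was labelled testicle, a label that the marker miRNAs described last do not bear out, from male rats of the Sprague Dawley strain, with 3 HO-1 knockout and 3 wild type libraries. No source used here gives the animals' age or how the knockout was made. The labels do not say that the 6 libraries came from separate animals. For each library the left testicle had been turned by 720° for 2 h and then left in its natural position for 3 days. Both genotypes thus carried the same injury, no uninjured library was analysed here, and HO-1, the heme oxygenase induced by stress, could not itself be checked because messenger RNA was not measured. Values are reads per 1000000 assigned reads (RPM), over 8300536 to 10042673 reads a library.

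These miRNAs are known as myomiRs. miR-1 and miR-133a are made from shared transcripts in heart and skeletal muscle, where both are among the most abundant miRNAs. miR-206 and miR-133b come from a second cluster and mark skeletal muscle and its regenerating fibres. miR-208a, miR-208b and miR-499 lie in introns of the myosin heavy chain genes Myh6, Myh7 and Myh7b, and take part in setting cardiac and slow-fibre gene programs. In the RefSeq gene table of the rat (assembly GRCr8), Mir499a lay inside Myh7b, Mir208a inside Myh6 and Mir208b inside Myh7. Mir1 and Mir133a1 lay within 10 kb of each other inside Mib1, as did Mir206 and Mir133b outside any protein-coding gene.

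Mature sequences of 13 of the 14 rows were found in the RefSeq miRNA table (GRCr8), all but miR-206-5p. The guide strands are shown because the values below turn on which of them can be told apart. They are written 5′ to 3′ with the seed, bases 2 to 8, in capitals. miR-1b is not one of the 14 rows, but it is shown because it differs from miR-1-3p by a single base.
miR-1-3p: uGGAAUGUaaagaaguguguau
miR-1b: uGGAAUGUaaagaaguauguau
miR-206-3p: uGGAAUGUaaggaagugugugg
miR-133a-3p: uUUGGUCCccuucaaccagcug
miR-133b-3p: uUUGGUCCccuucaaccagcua
miR-499-5p: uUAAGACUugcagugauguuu
miR-208a-3p: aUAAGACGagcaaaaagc
miR-208b-3p: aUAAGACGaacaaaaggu

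miR-1-3p, miR-1b and miR-206-3p shared the seed GGAAUGU, and no other row with a sequence in that table had it. Counted from 1 at the 5′ end and with miR-1-3p as the reference, miR-1b differed by G17A, and miR-206-3p by A11G, A21G and U22G. miR-133a-3p and miR-133b-3p shared the seed UUGGUCC and differed by G22A, the last base. miR-499-5p shared bases 2 to 7 with both miR-208 guide strands and differed from miR-208a-3p within the seed by U8G. No source used here says how the authors treated reads with mismatches or several matches. Reads of miR-1-3p and miR-1b, and of miR-133a-3p and miR-133b-3p, may therefore have been split between the rows. miR-499-5p had no such near-copy: compared base by base without gaps over the length shared, every other row with a known sequence differed from it at 8 or more bases.

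miR-499-5p, the guide strand from the Myh7b intron, led the striated muscle miRNAs in every library. Wild type libraries 1 to 3 held 128.15, 137.26 and 78.08 RPM of it, and knockout libraries 1 to 3 held 77.83, 77.48 and 59.61 RPM. Wild type libraries 1 and 2 were high, while wild type library 3 lay at the level of knockout libraries 1 and 2. miR-499-5p held between 87.0% and 96.5% of the RPM of the 14 rows in each library. These rows together held between 0.00685% and 0.0142% of all reads. By mean RPM over the 6 libraries miR-499-5p ranked 121 among all rows, and its rank within single libraries ran from 109 to 135.

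**Figure D1:**
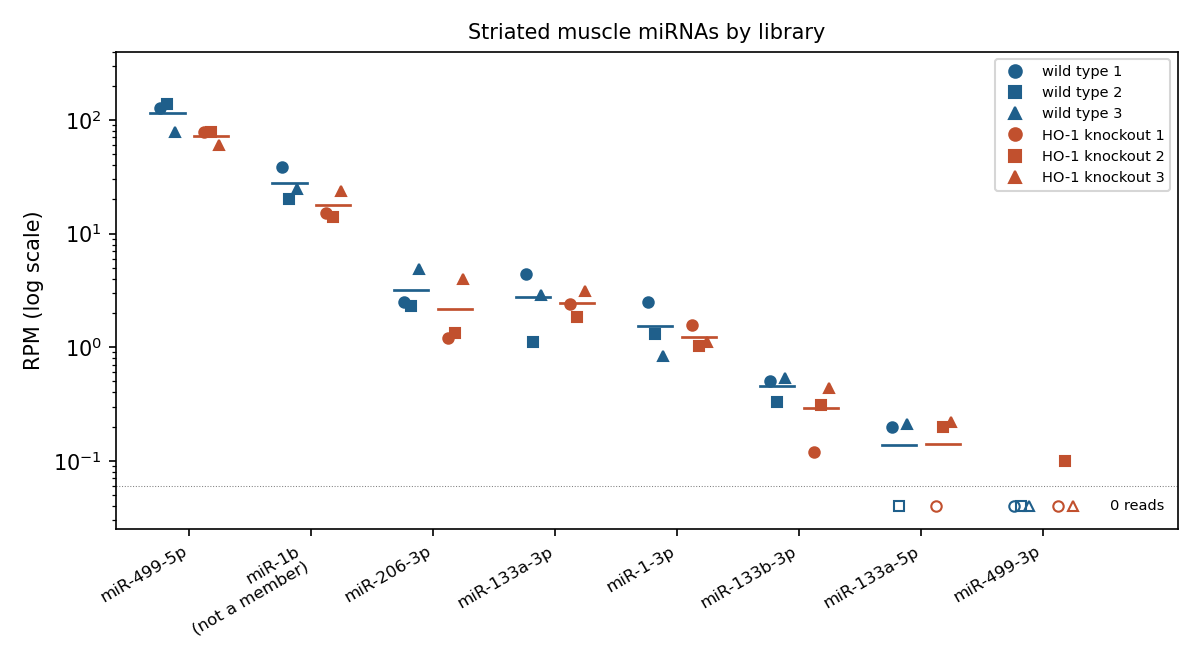
RPM of each striated muscle miRNA detected in some library, and of miR-1b, in the 3 wild type (blue) and 3 HO-1 knockout (orange) libraries, on a log axis; short lines are genotype means (not drawn below 0.06 RPM) and open symbols are libraries with 0 reads. miR-499-5p sits between 59.61 and 137.26 RPM, above every other member in all 6 libraries.

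The other detected guide strands were far lower. The wild type libraries held 2.49, 2.3 and 4.85 RPM of miR-206-3p, a miRNA of skeletal muscle, and the knockout libraries 1.2, 1.33 and 4 RPM. Its 2 highest libraries were the third of each genotype, at 46 and 36 reads, and the groups overlapped. For miR-133a-3p, a partner of miR-1 in heart and skeletal muscle, wild type values were 4.38, 1.1 and 2.85 RPM and knockout values 2.41, 1.84 and 3.11 RPM. Wild type libraries 1 and 2 held its highest and lowest value, so that all 3 knockout libraries fell between wild type values. For miR-1-3p, the row named for the main muscle miRNA, they were 2.49, 1.31 and 0.84 RPM against 1.57, 1.02 and 1.11 RPM. These were 8 to 25 reads a library, with the knockout again inside the wild type range. miR-133b-3p, the cluster partner of miR-206, lay between 0.12 and 0.53 RPM, at 1 to 5 reads a library.

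In order of mean level the guide strands ran miR-499-5p, miR-206-3p, miR-133a-3p, miR-1-3p and miR-133b-3p. miR-206-3p exceeded miR-133a-3p in only 3 of the 6 libraries, so these neighbours did not differ beyond their spread. miR-133a-3p exceeded miR-1-3p in 5 of 6 libraries, by a ratio of 0.84 to 3.39. miR-206-3p exceeded miR-133b-3p in 6 of 6, by at least 4.29 times. In this comparison each miRNA counts 1 molecule per read, but ligation-based libraries capture different miRNAs unequally, so a ratio between miRNAs is not a ratio of molecules in the tissue. The highest library also differed between members: it was wild type library 2 for miR-499-5p, wild type library 1 for miR-133a-3p and miR-1-3p, and wild type library 3 for miR-206-3p and miR-133b-3p.

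**Figure D2:**
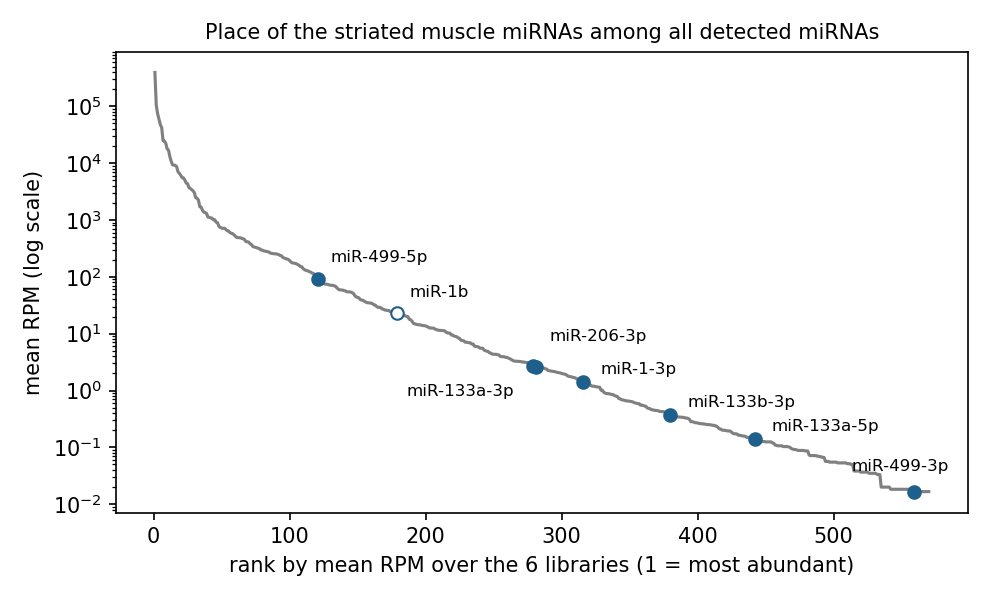
Mean RPM over the 6 libraries (log axis) against rank for all detected miRNAs (grey line), with the striated muscle miRNAs as filled points and miR-1b as an open point. miR-499-5p ranks 121 and miR-1b 179, while miR-206-3p, miR-133a-3p and miR-1-3p rank 279, 281 and 316.

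The passenger strands and the miR-208 miRNAs were at or near 0. miR-499-3p, the other strand of miR-499, had 1 read in all, in knockout library 2, against 5222 reads of miR-499-5p. miR-133a-5p had 8 reads over 4 libraries, against 147 of miR-133a-3p. Both strands of miR-208a, of heart muscle, and both strands of miR-208b, of slow muscle and developing heart, had 0 reads, as did miR-1-5p, miR-133b-5p and miR-206-5p. A count of 0 allows up to 3 reads, so each of these 7 rows was below 0.299 to 0.361 RPM per library, and below 0.0538 RPM over the 55749702 reads of all libraries. The labels mention no molecular identifiers, so these limits cover counting error only.

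The ratio of miR-499-5p to miR-1 depended on which rows were taken as miR-1. miR-499-5p was 49.6 to 104.8 times miR-1-3p within a library. Most reads with a miR-1 sequence, however, were assigned to miR-1b, with 38.73, 20.27 and 24.48 RPM in wild type libraries and 15.3, 14.07 and 23.69 RPM in knockout libraries. This row held between 90.7% and 96.7% of the summed RPM of miR-1-3p and miR-1b, in every library. The base that miR-1b carries at position 17 is that of mature miR-1 in human and mouse, known as background, so the row outside the name rule is the one with the conserved sequence. Against miR-1-3p and miR-1b together, miR-499-5p was 2.40 to 6.36 times higher. miR-499-5p thus stayed above miR-1 in 6 of 6 libraries, with a ratio 10.7 to 30.1 times smaller than against miR-1-3p alone. By seed, the 3 rows with GGAAUGU summed to 16.4 to 43.7 RPM, and the 2 rows with UUGGUCC to 1.43 to 4.88 RPM.

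**Figure D3:**
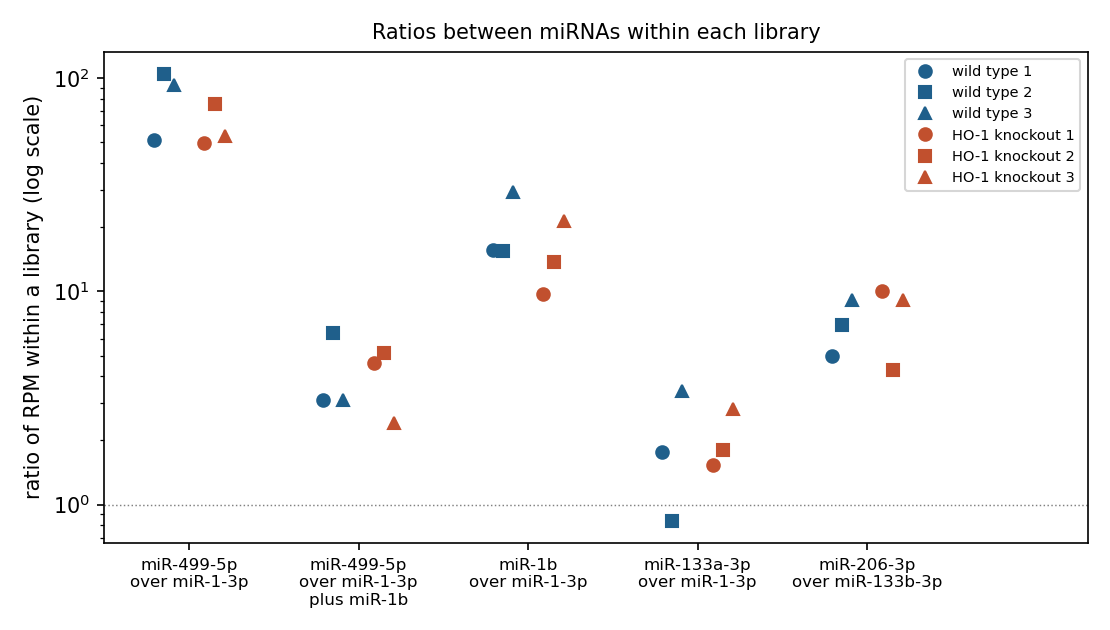
Ratios of RPM between miRNAs within each library, on a log axis, in wild type (blue) and HO-1 knockout (orange) libraries, with a dotted line at a ratio of 1. Adding miR-1b to miR-1-3p lowers the ratio of miR-499-5p from 49.6 to 104.8 down to 2.40 to 6.36, and wild type and knockout points overlap in every column.

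None of the 7 detected members passed the test between genotypes (limma on log2(RPM + 1), Benjamini-Hochberg adjusted p below 0.05 over all 570 detected miRNAs), against 6.32% of all miRNAs tested. edgeR's quasi-likelihood test and DESeq2, both on recovered reads, also called 0 members, where they called 10.7% and 20.6% of all miRNAs with an adjusted p. DESeq2 gave an adjusted p for 4 of the 7 members. At an unadjusted limma p below 0.05 there was 1 member, miR-499-5p, against 19.3% of all miRNAs. The fitted change was below 0 for 5 of the 7 members, where 69.5% of all miRNAs lay below 0. The members' median log2 change was -0.15, beside -0.12 for all 570. The 7 members without any read were left out of the fit.

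Mean miR-499-5p was 114.5 ± 31.9 RPM in wild type and 71.6 ± 10.4 RPM in knockout libraries (SD, n = 3), 1.60-fold lower by these means. On the log2 scale it differed by -0.64 (SE 0.24, 95% interval -1.18 to -0.09), with an adjusted p of 0.18 in limma. All 3 knockout libraries lay below all 3 wild type libraries, as they did for 21.6% of all miRNAs tested and for 41.7% of the 218 with at least 10 RPM. This separation was seen without rescaling, where the gap between the groups was 0.25 RPM, smaller than the counting error of 2.87 RPM in wild type library 3 and 3.06 RPM in knockout library 1. In those libraries the exact (Clopper-Pearson) 95% intervals from counting were 72.6 to 83.9 and 71.9 to 84.1 RPM. The 218 miRNAs of at least 10 RPM shifted by a median of -0.29 before any rescaling, and by -0.07 with TMM scaling (trimmed mean of M values), where miR-499-5p had a fitted change of -0.42 (limma adjusted p = 0.30). With TMM scaling wild type library 3 stood at 80.5 and knockout library 1 at 92.1, so the groups overlapped, as they did with RLE and upper-quartile scaling and with totals without miR-122-5p. Leaving out wild type library 3, the log2 change was -0.89 and passed (limma adjusted p = 0.046). It passed with no other single library left out (limma adjusted p between 0.26 and 0.42). Fitted among the 218 miRNAs of at least 10 RPM alone, miR-499-5p had a limma adjusted p of 0.067. The authors' deposited table lists miR-499-5p with a log2 fold change of -0.68 and a p-value of 0.043, rank 100 of its 764 rows, of which 105 lay below 0.05.

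**Figure D4:**
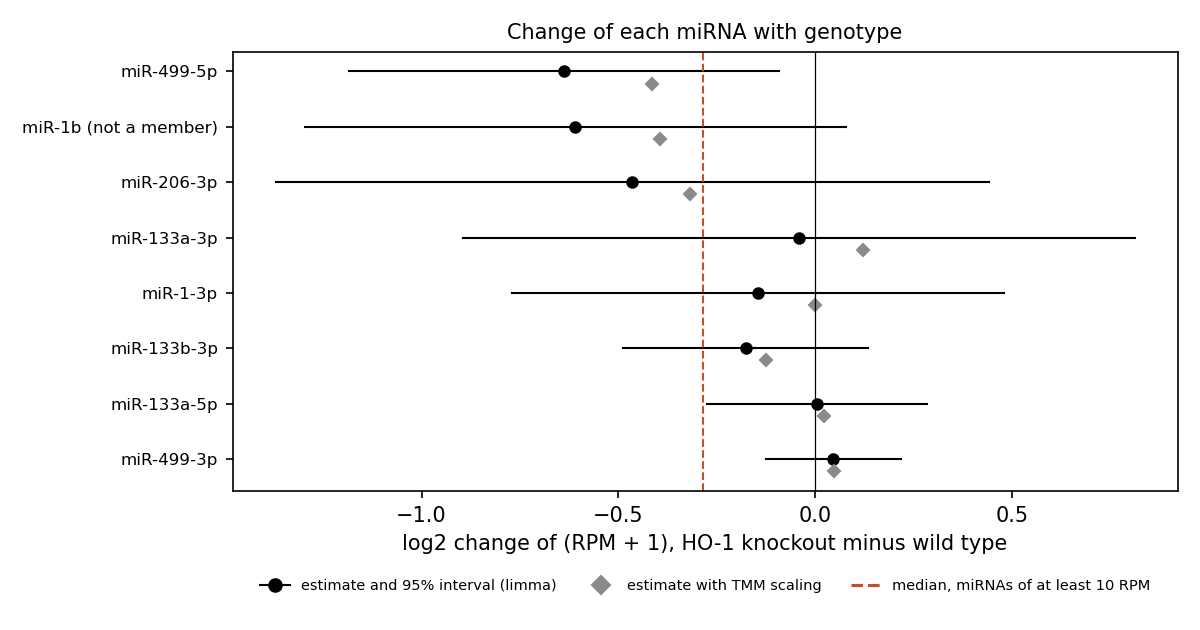
Change in log2(RPM + 1) of each detected striated muscle miRNA and of miR-1b, knockout minus wild type, with its 95% interval from limma (black) and the estimate with TMM scaling (grey); the dashed line is the median of the 218 miRNAs of at least 10 RPM, -0.29. Only the interval of miR-499-5p lies wholly below 0, and none of these miRNAs passed adjustment over all miRNAs.

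For the other members the data leave wide intervals. Mean miR-206-3p was 3.21 ± 1.42 RPM in wild type and 2.18 ± 1.58 RPM in knockout libraries (SD, n = 3), a log2 change of -0.46 with a 95% interval of -1.37 to 0.44. miR-1-3p stood at 1.55 ± 0.85 and 1.23 ± 0.30 RPM, a change of -0.15 with an interval of -0.77 to 0.48. miR-133a-3p stood at 2.78 ± 1.64 and 2.45 ± 0.64 RPM, a change of -0.04 with an interval of -0.90 to 0.81. Its sign turned with TMM scaling (0.12), and that of miR-1-3p with relative log expression (RLE) scaling (0.01). Limma adjusted p for the 6 members other than miR-499-5p ran from 0.49 to 0.99. The interval of miR-133a-3p runs from 0.537 to 1.75 times the wild type level of RPM + 1, and a change anywhere in this range is compatible with the data. miR-133b-3p, miR-133a-5p and miR-499-3p had too few reads for the scale of log2(RPM + 1) to show a change of their own size.

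Mean miR-1b was 27.8 ± 9.7 RPM in wild type and 17.7 ± 5.2 RPM in knockout libraries (SD, n = 3). Its log2 change of -0.61 (SE 0.30) had an adjusted p of 0.30 in limma, and its groups overlapped. The log2 ratio of miR-499-5p to miR-1-3p within a library, which does not depend on how libraries are scaled except through the added 1 RPM, was 5.51 ± 0.35 in wild type and 5.02 ± 0.23 in knockout libraries (SD, n = 3). The difference of -0.49 gave p = 0.2 in an exact two-sided permutation test, where 3 against 3 libraries allow 0.1 at the smallest. The added 1 RPM was close in size to miR-1-3p itself, at 0.84 to 2.49 RPM. With 0.1 RPM added instead the difference was -0.44 (exact permutation p = 0.2), and with 5 RPM it was -0.55 (exact permutation p = 0.1). With miR-1b added to miR-1-3p, an alternative chosen after the data were seen, the difference became -0.05 (exact permutation p = 1).

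Spread between libraries differed among the members. For miR-499-5p the coefficient of variation was 27.8% over wild type and 14.5% over knockout libraries, where counting alone would give 3.02% and 3.93%. For miR-1-3p it was 55.0% and 23.9%, beside 25.8% and 30.2% from counting. miR-206-3p varied by 44.2% and 72.6%, beside 18.1% and 22.5% from counting. miR-499-5p had a standard deviation within genotypes of 0.35 on the log2 scale, above the median of 0.21 among the 48 miRNAs with a mean of 50 to 200 RPM, of which 8 had a larger one.

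Across the 6 libraries the miRNAs most like miR-499-5p, among 217 others of at least 10 RPM, were miR-30b-3p, miR-450b-5p and miR-322-3p. Pearson's r of log2(RPM + 1) was 0.97, 0.94 and 0.94, and Spearman's rho 0.94, 0.71 and 0.83. Without wild type libraries 1 and 2, the farthest from the median, r was 0.63, 0.84 and 0.95. They are given as a description over 6 libraries that share 1 total each. miR-1b was not among them. Its r was 0.40, rank 140 of 217, and turned to -0.52 without the same libraries, so the miR-1b and miR-499-5p levels did not follow each other library by library.

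Other miRNAs with a published role in muscle cell growth or differentiation, which many tissues also express, were taken from a list of 22. Of these, 6 fell in the knockout, against 5.61% of all miRNAs, 1 rose, against 0.702%, and 15 did not pass (limma adjusted p below 0.05). These shares are over all 570 detected miRNAs, of which 218 had at least 10 RPM. Limma on those 218 alone called 50, in either direction. The list's median log2 change was -0.53, beside -0.12 for all 570 and -0.29 for the 218 of at least 10 RPM, to which 20 of the 22 belong. With TMM scaling it was -0.31, beside -0.07 for those 218. The list was written with earlier results of these data known. miR-31a-5p, known to repress the myogenic factor Myf5, fell by 1.25 on the log2 scale (SE 0.12, limma adjusted p = 0.0033). miR-221-3p, which targets the cell cycle inhibitor p27, fell by 2.16 (SE 0.23, limma adjusted p = 0.0033). miR-125b-5p, a regulator of IGF2 in myoblasts, fell by 0.93 (SE 0.14), and miR-30a-5p by 0.62 (SE 0.10). miR-199a-3p fell by 1.42 (SE 0.33) and miR-322-5p, which promotes cell cycle exit, by 0.87 (SE 0.17). The riser was miR-29b-3p, a promoter of myogenic differentiation, at a log2 change of 0.91 (SE 0.15).

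The most abundant of the 22, miR-26a-5p, stood at 46396 ± 1815 and 37750.5 ± 508 RPM (SD, n = 3; limma adjusted p = 0.056), and miR-378a-3p, induced in myoblast differentiation, at 8532 ± 3013 and 10077 ± 671 RPM (limma adjusted p = 0.52). miR-27b-3p, a repressor of Pax3, stood at 6922 ± 1416 and 4081 ± 874 RPM (limma adjusted p = 0.056) and passed with TMM scaling (limma adjusted p = 0.039). The calls of miR-31a-5p and miR-221-3p held with any single library left out. Those of miR-125b-5p and miR-30a-5p were lost without knockout library 3 (limma adjusted p = 0.071 and 0.073), that of miR-30a-5p also with RLE and upper-quartile scaling. Leaving out wild type library 2, or knockout library 2 or 3, ended that of miR-29b-3p (0.055 to 0.085). The call of miR-199a-3p held with wild type library 1 left out and with no other (0.057 to 0.18), and ended with a pseudocount of 5 RPM and in the replicate block. The call of miR-322-5p held with wild type library 3 left out and with no other (0.055 to 0.13), and ended in the replicate block.

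Of the marker lists for other cells, smooth muscle and endothelium held calls. In the smooth muscle list, 3 of 4 members fell, where 5.61% of all miRNAs did. All 4 had at least 10 RPM, and limma on the 218 such miRNAs alone called 50, in either direction. The list's sum was 9840 to 14599 RPM in wild type and 5865 to 7801 RPM in knockout libraries. This was 75.8 to 112.6 times the sum of the striated muscle rows. Most of it was miR-143-3p, with means of 11348 RPM in wild type and 5914 RPM in knockout libraries. Each of the smooth muscle calls ended with 3 or 4 of the 6 single libraries left out, wild type library 2 among them each time. Each held with TMM scaling. Both endothelial miRNAs fell, with sums of 25222 to 26982 and 19147 to 21287 RPM, but the call of miR-126a-3p ended with TMM scaling, and both calls ended with wild type library 2, or knockout library 1 or 3, left out.

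No member of the other lists passed in limma without rescaling. Of the 2 strands of the hepatocyte miRNA miR-122, miR-122-5p took 32.7% to 36.6% of reads in wild type libraries and 40.2% to 46.4% in knockout libraries (limma adjusted p = 0.095), and miR-122-3p stood at 1420 ± 47 and 1326 ± 142 RPM (SD, n = 3; limma adjusted p = 0.61). DESeq2 on recovered reads called miR-122-5p. The 9 germ cell and gonad miRNAs summed to 35.3 to 50.1 RPM in wild type and 25.2 to 29.7 RPM in knockout libraries, with miR-880-3p and miR-883-3p at 0. With a hepatocyte miRNA the most abundant of all, the values go against the tissue label, and which tissue the muscle miRNA levels describe is in doubt. The defining miRNAs of testis were rare as well, but every library carried the injury, and whether it lowered them was not tested. The leukocyte (4), red blood cell (3) and neuronal (3) lists had sums of 757 to 871 and 811 to 923 RPM, 280 to 361 and 228 to 274 RPM, and 358 to 585 and 733 to 762 RPM. Nearly all of the neuronal sum was miR-128-3p, with means of 480 RPM in wild type and 728 RPM in knockout libraries. The neuronal miR-124-3p had 0 RPM in every library but wild type library 3, at 0.11 RPM. With TMM scaling the leukocyte miR-142-3p and the neuronal miR-128-3p rose (limma adjusted p = 0.021 and 0.020), as they did in edgeR (adjusted p = 0.0071 and 0.0035), which also called miR-9a-5p, as did DESeq2. The other leukocyte miRNAs did not pass with TMM scaling, where miR-142-5p changed by 0.17, miR-223-3p by -0.21 and miR-150-5p by -0.07 on the log2 scale. Over all 570 miRNAs, limma with TMM scaling called 20 higher. The part of the listed cell types in the level of miR-499-5p was not tested. In bulk tissue, fewer cells of a type and less RNA per cell cannot be told apart.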

How the data were processed

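Small RNA libraries were prepared by ligation from 1 μg of total RNA and sequenced as single reads of 50 bases, per the labels' protocols. The authors deposited 1 table of RPM for 764 rat miRNAs, and beside it a mean RPM for each genotype. A log2 fold change and a p-value stand in that deposited table too, per the file headers, but no source used here names the test behind them. The submitters' processing notes list FastQC, BWA, edgeR and the build rn6 without role or version. Columns were matched to samples by title.

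Whole reads were recovered from the RPM steps. Each library's total was chosen to place the most values at whole reads, and then to match the summed reads. That the reads summed to it is therefore no separate check. In each library, 97.8% to 98.9% of values above 0 lay within 0.0051 RPM of a whole read. By chance 8.47% to 10.2% would, for a total fixed beforehand rather than chosen for a high share. For wild type library 1, whose step is close to 0.1 RPM, low values alone do not show that values fall on whole reads. The main test was limma 3.58.1 (trend on intensity) on log2(RPM + 1), with genotype as the only factor, over the 570 miRNAs detected in at least 1 library. edgeR 4.0.16 and DESeq2 1.42.0 on recovered reads were alternatives, beside other scalings, pseudocounts of 0.1 and 5, filters, a replicate block and each library left out. Scripts were tested on simulated data. The members and lists were chosen with earlier results of these data known. Named miRNAs were all members, the 3 most similar to each member of at least 10 RPM, and, of the 22 miRNAs with roles in muscle, those called and the 4 most abundant. miR-1b was added after its values were seen. The labels do not say that libraries came from separate animals, so the p-values speak of the spread among the 6 libraries, which may be technical.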

Additional observations from a re-analysis of the deposited data

How the results depend on the processing

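The count of striated muscle miRNAs that passed was 0 under every alternative run except one, and ranged from 0 to 1 with single libraries left out, the 1 being miR-499-5p without wild type library 3. The change of miR-499-5p kept its direction in all 18 alternatives, from -0.89 to -0.40. Some of these cannot move its estimate, which stayed at -0.64. They are the filter at 10 RPM, the fit with no filter, the replicate block and the sum of miR-1-3p and miR-1b. Over all miRNAs, 36 calls became 22 with the replicate block, 61 in edgeR and 72 in DESeq2 on recovered reads, and 5 to 26 with single libraries left out (17 without wild type library 2, and 13, 21 and 5 without knockout libraries 1, 2 and 3); the cause was not tested. With no filter limma called 0 of 764 rows and 119 at an unadjusted p below 0.05. Adjusted over the 570 detected rows alone, that same fit called 28. Calls split into 4 higher and 32 lower became 20 and 29 with TMM scaling.

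miR-133a-3p turned positive, at 0.12 with TMM, 0.13 with RLE and 0.11 with upper-quartile scaling, 0.13 with totals without miR-122-5p, 0.057 in edgeR and 0.083 in DESeq2. With single libraries left out it ranged from -0.41 to 0.26, miR-1-3p from -0.35 to 0.11 and miR-133a-5p from -0.086 to 0.096. With RLE scaling miR-1-3p was at 0.0080. The difference in the log2 ratio of miR-499-5p to miR-1-3p ranged from -0.64 to -0.30 with single libraries left out. The members below a mean of 10 RPM could not be fitted under that filter.

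Replicate numbers were not treated as pairs in the main test. Deviations of equally numbered libraries correlated at 0.03, 0.18 and 0.20 over 218 miRNAs. Wild type libraries 2 and 3 each correlated best with the knockout library of the same number. Wild type library 1 correlated best with knockout library 2, at 0.06 against 0.03 with knockout library 1. These values do not settle whether equal numbers mark pairs, and the replicate block was run as an alternative. With the replicate block, miR-499-5p reached 0.12 as its adjusted p in limma, and the ratio an exact permutation p of 0.25, the smallest that 3 pairs allow. No member's call changed with the block.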
